A study of Mus musculus with 18 samples.

Results

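Mouse ESCs kept in unchanged 2iL medium (2iL-ESCs) were compared between day 18 and day 25, to see how far the transcriptome moved over 7 days in which the medium stayed the same. The comparison used 4 of the 18 RNA-Seq libraries of the series, 2 labelled day 18 and 2 labelled day 25, which were chosen by their titles alone, and it covered all genes. By day 25 many genes induced by interferon had fallen, and most targets of the hypoxia-inducible factor (HIF), most glycolysis enzymes and several naive pluripotency factors had risen. Most genes of cytosolic ribosomal proteins and heat shock proteins fell by smaller amounts. How many passed depended on the scaling and, as over all genes, on the day 25 libraries.

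The 2iL-ESCs belonged to the ESC arm of a study that tested whether the 4 reprogramming factors OSKM (Oct4, Sox2, Klf4 and c-Myc) can replace the usual additives of ESC medium. They were the positive control of that arm and were derived and kept in N2B27 with 2iL, which is the MEK inhibitor PD0325901, the GSK3 inhibitor CHIR99021 and leukemia inhibitory factor (LIF). The sister cultures, called OSKM-ESCs, were moved to N2B27 with doxycycline (DOX), and the days of both arms count from that switch. The 2iL-ESC and OSKM-ESC libraries all came from a Tet-On-OSKM/Oct4-GFP ESC line, whose strain is a cross of (C57BL/6 x 129S4/SvJae)F1 with (CBA/CaJ X C57BL/6J)F2. All of these cells therefore carried the DOX-inducible OSKM cassette and the Oct4-GFP reporter, and the 2iL-ESCs received no DOX. A single line, grown on mitomycin C-treated MEF feeder cells, limits what the libraries stand for. Each day had 2 replicates, and since no source used here says that they were separate cultures, the p-values below measure only the spread between these libraries, which may be technical.

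Some background helps in reading the results. Blocking MEK removes the FGF/ERK signal that drives ESCs out of self-renewal, blocking GSK3 stabilizes beta-catenin, and LIF acts through STAT3, and together they hold ESCs in a naive state with high Klf4, Tbx3, Esrrb and Tfcp2l1. Interferon-stimulated genes are the effector genes of antiviral defence. They are switched on through IRF factors, which bind promoter elements with repeated GAAA. HIF is degraded under normal oxygen after hydroxylation by the EGLN enzymes, and when it accumulates it activates genes of glycolysis, angiogenesis and collagen modification through short elements that contain ACGTG or GCGTG.

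Expression is given in FPKM as the authors deposited it, a number of fragments scaled by the length of the transcript and the mapped fragments of the library. Changes are given as log2 changes, the mean of log2(FPKM + 1) at day 25 minus that at day 18. Each ± is limma's moderated standard error (SE), which joins the spread of the gene's own libraries with a spread shared between genes. It can be smaller or larger than the spread of the 2 libraries a day alone. The added 1 makes a log2 change smaller than the true one for low genes. A gene is called upregulated or downregulated where limma gave an adjusted p (Benjamini-Hochberg) under 0.05 over the 12540 genes tested, which are those above FPKM 1 in any of the 4 libraries. A gene above this limit on 1 day only was tested through that day, so the limit largely set its direction. An exact permutation test of 2 against 2 libraries cannot go below p = 0.333, so every test rests on the spread that limma shares between genes.

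The libraries were of like quality by the measures in the files. Genes with an FPKM over 1 numbered 11303 and 11329 at day 18 and 11831 and 11842 at day 25. Read depth is unknown, and the coverage that corresponds to an FPKM of 1, a measure that grows with depth, was 6.07 and 5.61 at day 18 and 5.50 and 5.01 at day 25, so that the day 25 libraries were not the deeper ones. The label of ESCs held, since all 10 ESC markers were over FPKM 1 in each library and their summed FPKM was 2967 and 2983 at day 18 and 3503 and 3523 at day 25. The 12 fibroblast markers summed to 7.02 and 6.58 FPKM at day 18 and 5.08 and 4.86 at day 25, against 2310 and 2048 in the MEF cells of the series. Of the primitive endoderm markers, 0 of 5 passed FPKM 1 in any of these libraries. Of the neural markers 2 of 4 did in each library, with Tubb3 highest at 56.9 and 54.8 FPKM and then at 41.9 and 44.5. Of the mesoderm markers 2 of 4 did too, with sums of 8.07 and 9.16 FPKM and then 6.78 and 5.89. Of the trophoblast markers 1 of 4, Cdx2, passed FPKM 1 at day 18 and 0 of 4 at day 25.

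The days stood apart by more than the replicates did. The Euclidean distance over the 12540 genes on the log2(FPKM + 1) scale was 36.9 between the libraries of day 18, 30.9 between those of day 25 and 68 on average between the days (66.8 to 70.4 over the 4 pairs). The distance between the days was thus 2.00 times the mean distance within a day. By the same measure day 18 lay 53.65 from the day 38 2iL-ESCs and day 25 lay 44.3 from them, so the day 18 and day 25 libraries were farther from each other than either was from day 38. The OSKM-ESCs of day 18 and day 25 were 56.0 apart, and 2iL-ESCs and OSKM-ESCs of the same day were 91.7 apart at day 18 and 88.8 at day 25. The 12540 genes were chosen by their level in the 2iL-ESC libraries of day 18 and day 25. Genes above FPKM 1 only at day 38 or only in OSKM-ESCs were left out, which can make the distances to and within those groups smaller.

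Of the 12540 genes, 6129 (48.9%) passed the test. Upregulated genes numbered 3946 (31.5%) and downregulated genes 2183 (17.4%). Leaving out a library lowered these counts, to 2148 up and 982 down without replicate 1 of day 25 and to 1884 up and 859 down without replicate 2 of day 25. Most changes were small, and 84.1% of the genes tested stayed within 2-fold by mean FPKM. A fold over 2 together with an unadjusted p under 0.05, the form of cutoff used in the study, was met by 1447 genes that were higher (11.5%) and 383 that were lower (3.05%). For 76.5% of the genes tested, both libraries of either day lay above both of the other.

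The balance of up and down depended on the scale. The median gene was shifted by 0.12 on the log2 scale of FPKM, and 64.4% of the called genes were higher at day 25. That share was 52.6% after median-ratio scaling (median shift 0.02), 51.8% after quantile normalization and 76.1% in TPM (median shift 0.25). The change also went with gene length and GC content. In 4 bins of equal size, the shortest genes had a median change of -0.12 and the longest 0.28, and those lowest in GC content had -0.01 and those highest 0.29. In OSKM-ESCs over the same days these medians were -0.11, 0.07, -0.17 and 0.12. The part of length and GC content in the changes of single genes was not tested, and after both trends were removed 46.4% of the called genes were higher at day 25. The gene groups below are therefore given beside the median of all genes. Their counts are to be read beside the shares of all genes tested, 31.5% up and 17.4% down.

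The largest falls were in interferon-stimulated genes, which made up 10 of the 12 genes that fell most among those with a mean FPKM over 5 at the higher day. Irgm1 (chr11:48861968-48871683; coordinates are of GRCm38), an immunity-related GTPase, was at 89.97 and 89.1 FPKM at day 18 and at 1.45 and 0.661 at day 25. Isg15 (chr4:156199455-156200796), a ubiquitin-like protein that is attached to other proteins during infection, went from 44.3 and 34.4 to 0.178 and 0.304 FPKM. Their log2 changes were -5.49 ± 0.19 (adjusted p = 0.000636, limma) and -5.01 ± 0.15 (adjusted p = 0.000498). In both genes the day 18 libraries were far above the day 25 libraries. That they did not overlap was a condition for naming these genes, and 76.5% of all genes tested did not overlap. In bulk RNA, fewer expressing cells and less RNA per cell cannot be told apart.

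The promoter of Isg15 is shown because it holds the repeated GAAA element through which interferon-activated factors act. The sequence is from RefSeq (GRCm38.p6, chr4:156200857-156200926, minus strand), lies within the 250 bases before the gene's start, and its capitals mark the first of 3 overlapping matches to the element, GAAA and another GAAA separated by any 2 bases, which begins 78 bases before the start.
Isg15: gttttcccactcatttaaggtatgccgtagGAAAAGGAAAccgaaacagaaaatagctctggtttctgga
Of the 12 downregulated genes in the list of interferon and MHC class I genes, 10 had a promoter in the RefSeq table, and 5 of these held the element on either strand. In the wider interferon list described below it was 17 of 43 downregulated genes with a promoter (39.5%), and among the 12 largest falls 2 of 8 (25.0%). The element stood in 3.46% of all 27025 promoters in the table and in 2.91% of the 9324 tested genes that have one. A match is a description of the letters and does not show a binding site. The lists were made of known interferon genes, so a share above that of all promoters can come from the choice of members. Members that did not pass were not compared.

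Other antiviral genes were among the largest falls. Rtp4, an interferon-induced chaperone of receptors, went from 30.8 and 35.3 to 0.281 and 0.161 FPKM (log2 change -4.80 ± 0.11). Usp18, the protease that takes ISG15 off its targets and restrains interferon receptor signalling, went from 27.1 and 24.2 to 0.122 and 0.150 FPKM and was listed at 0 in both day 38 libraries. Oasl2, of the oligoadenylate synthetase family, went from 21.5 and 20.05 to 0.148 and 0.312 FPKM. Its relative Oasl1 was at 10.2 and 8.63 FPKM and then at 0.893 and 0.883. The RNA sensor RIG-I, gene Ddx58, went from 57.9 and 57.3 to 6.29 and 7.46 FPKM (log2 change -2.90 ± 0.09). Ifi27, a small interferon-induced protein, went from 84.1 and 80.2 to 8.50 and 9.01 FPKM. Bst2, the tetherin that holds budding viruses on the cell, was the most abundant of them and went from 340.0 and 263 to 79.6 and 80.99 FPKM (log2 change -1.88 ± 0.13, adjusted p = 0.00114, limma). Thus Bst2 and Ddx58 were still expressed at day 25, whereas Isg15, Rtp4, Usp18 and Oasl2 were below FPKM 1 in both libraries.

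Irf7, the factor that amplifies type I interferon responses, fell too, whereas the receptor chain Ifnar1 did not pass. Irf7 went from 9.15 and 10.2 to 0.104 and 0.0621 FPKM (log2 change -3.30 ± 0.12). It overlaps Phrf1 on the other strand, and the library kit does not mark strand. Phrf1 was higher at day 25, at 28.1 and 27.1 against 17.8 and 18.8 FPKM. Ifnar1 was at 9.95 and 10.2 and then at 8.996 and 8.74 FPKM, a log2 change of -0.17 that did not pass (adjusted p = 0.127, limma).

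As a group, the list of interferon and MHC class I genes had 19 of 27 members over the FPKM limit, of which 12 were downregulated, 2 were upregulated and 5 did not pass, with a median change of -1.11 against 0.12 for all genes tested. The 2 that rose, named after their values were seen, were Ifitm1 (log2 change 0.69) and B2m, the light chain of MHC class I (0.47). Ifitm2 was at 219.8 and 199.7 FPKM and then at 263 and 237, with a log2 change of 0.25 and an adjusted p of 0.0559. A wider list of interferon-stimulated genes was put together after the data were seen. It had 57 of 70 tested genes down, 2 up and a median of -1.34. Those up were Ifitm1 and Pml, and the change of Pml, 0.33, was -0.081 with length and GC trends removed. The FPKM limit shapes these counts, since Isg15, Rtp4, Usp18 and Oasl2 passed it only through day 18. With the limit taken over the 8 libraries of both media, the first list had 24 genes and a 2iL-ESC median of -0.33. The wider list then had 76 genes and a median of -1.21. A list of interferon ligands and receptors, also put together afterwards, had 22 of its 27 members under the limit, and of the 5 tested only the receptor chain Ifngr1 passed, with a rise of 0.56. Among 19 genes of interferon signalling and nucleic acid sensing, 4 rose and 4 fell. The risers were the kinases Jak1 (0.69) and Tyk2 (0.57), the adaptor Mavs (0.42) and Tmem173, which encodes STING (0.76). Socs1, a feedback inhibitor of interferon signalling, was among those that fell (-1.02). These 5 genes were named after their values were seen. The summed level of the interferon and MHC list was 1244 and 1056.5 FPKM at day 18, 626 and 579.6 at day 25 and 525 and 524 at day 38.

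**Figure D1:**
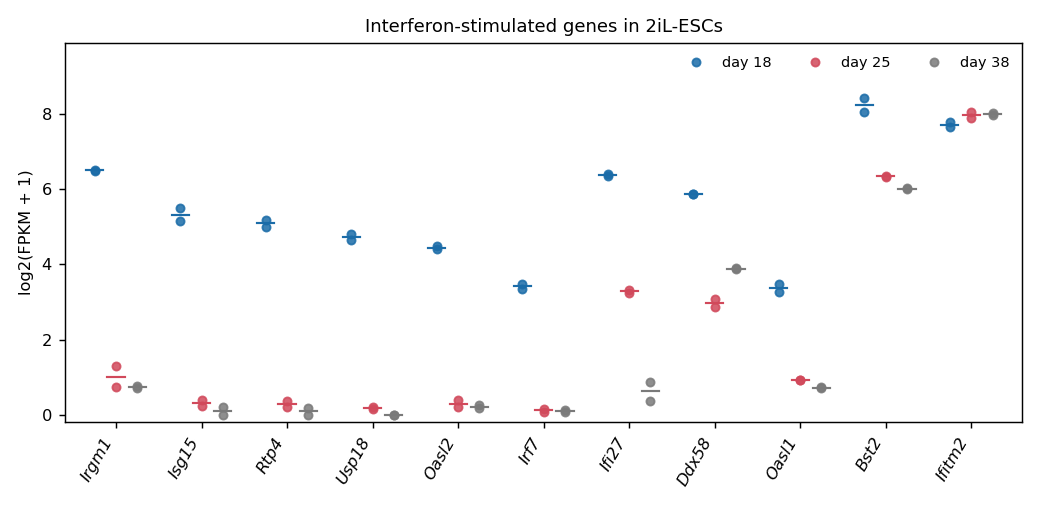
Level of interferon-stimulated genes in the 2iL-ESC libraries, as log2(FPKM + 1) for each library (dots) and the mean of each day (dashes), with day 18 in blue, day 25 in red and day 38 in grey. Irgm1 stood at 89.97 and 89.1 FPKM at day 18, at 1.45 and 0.661 at day 25 and at 0.640 and 0.713 at day 38, and Bst2 kept 79.6 and 80.99 FPKM at day 25.

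Among genes with a mean FPKM over 5 at the higher day, the largest rise was that of Ndufa4l2, followed by Slc16a3, and the HIF target Vegfa was among the 12 largest. Slc16a3 (chr11:120948480-120960868), the transporter that exports lactate from glycolytic cells, went from 2.78 and 3.75 FPKM to 51.5 and 39.95. Its log2 change was 3.45 ± 0.17 (adjusted p = 0.000805, limma). Vegfa (chr17:46016993-46032369), the main growth factor of blood vessels and a classical HIF target, was at 3.80 and 5.41 FPKM and then at 35.3 and 25.5, 6.60 times as high (log2 change 2.48 ± 0.21, adjusted p = 0.00161). Ndufa4l2 (chr10:127514967-127517154), a mitochondrial protein induced by HIF, went from 1.70 and 0.489 to 24.6 and 23.9 FPKM, 22.2 times as high (log2 change 3.65 ± 0.28). Both day 25 libraries of these genes lay above both day 18 libraries by several-fold, but no overlap and a fold over 2 were conditions for naming them. Ndufa4l2 overlaps Shmt2 and Slc16a3 overlaps Csnk1d on the other strand, and reads of such partners cannot be told apart without strand. Shmt2 was at 103 and 96.9 FPKM and then at 139 and 137, and Csnk1d at 31.6 and 32.9 and then at 40.8 and 41.2.

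Other HIF targets rose as well. Egln3, a prolyl hydroxylase that marks HIF for degradation, went from 3.13 and 3.22 to 17.1 and 16.5 FPKM (log2 change 2.09 ± 0.08). P4ha1, which hydroxylates prolines of collagen, went from 3.29 and 3.45 to 20.1 and 21.5 FPKM (log2 change 2.32 ± 0.08). Ndrg1, a stress-responsive gene used as a marker of hypoxia, was at 4.86 and 4.01 FPKM and then at 24.7 and 27.99. Bnip3, a receptor for the removal of mitochondria, went from 10.9 and 9.95 to 43.8 and 47.2 FPKM, and Egln1, the main sensor enzyme for oxygen, from 3.69 and 4.36 to 12.9 and 12.8. Both were named after their values were seen. Stc2, a secreted glycoprotein, went from 1.09 and 1.10 to 7.69 and 7.18 FPKM, and Ddit4, an inhibitor of mTORC1, from 15.8 and 15.7 to 65.3 and 57.3. The RNA of Hif1a itself was at 22.3 and 27.9 FPKM at day 18 and at 23.5 and 25.7 at day 25 and did not pass (log2 change -0.02, adjusted p = 0.913, limma).

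Of the 28 HIF targets listed, 27 were tested, of which 19 were upregulated, 2 were downregulated and 6 did not pass, with a median change of 1.03. The 2 downregulated targets were the histone demethylase Kdm3a, at 63.5 and 57.2 FPKM and then at 40.4 and 39.3 (log2 change -0.59), and Jmjd6 (-0.47, named after its value was seen). All 25 members of the list of glycolysis enzymes and glucose transporters were tested, of which 20 were upregulated and 5 did not pass, with a median of 0.83. The list includes Slc16a3, and some of its members are HIF targets. The glucose transporters Slc2a1 (log2 change 1.41) and Slc2a3 (1.33) were among those that rose, and were named after their values were seen. Hexokinase 1, gene Hk1, which starts glycolysis, went from 13.3 and 13.1 to 50.99 and 48.2 FPKM. The aldolases Aldoa and Aldoc went from 649 and 592 to 1130.1 and 1106 FPKM and from 4.07 and 4.51 to 15.5 and 15.6. Ldhb, a lactate dehydrogenase subunit, went from 47.3 and 45.4 to 188 and 186 FPKM (log2 change 1.99 ± 0.06). Pgm1, a phosphoglucomutase that links glycogen to glycolysis, was among the 12 largest rises, from 5.74 and 5.58 to 30.5 and 29.3 FPKM. The medians of both lists stayed positive under every scaling and without each library, from 0.89 to 1.21 and from 0.63 to 0.97.

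Promoters of 3 of the genes with the largest rises are shown, because each holds ACGTG, the core of the hypoxia response element, upstream of its start. All are from RefSeq (GRCm38.p6) on the plus strand, at chr11:96849726-96849790 for Copz2, chr10:59323250-59323295 for P4ha1 and chr4:99929213-99929277 for Pgm1. Capitals mark the match, which in P4ha1 is read on the other strand as CACGT. It begins 120 bases before the start in Copz2, 16 in P4ha1 and 208 in Pgm1.
Copz2: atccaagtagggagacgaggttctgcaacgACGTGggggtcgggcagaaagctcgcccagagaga
P4ha1: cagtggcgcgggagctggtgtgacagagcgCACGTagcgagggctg
Pgm1: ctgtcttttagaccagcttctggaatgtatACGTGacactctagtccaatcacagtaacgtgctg
Of the 12 largest rises, 8 had a promoter in the table, and 6 of these held ACGTG. Among the upregulated HIF targets the share was 12 of 16 (75.0%) and among the upregulated glycolysis genes 10 of 19 (52.6%), against 18.5% of all promoters and 25.9% of those of tested genes. The other form, GCGTG, stood in 3 of 8 promoters of the 12 largest rises (37.5%), in 14 of 16 HIF targets (87.5%) and in 11 of 19 glycolysis genes (57.9%), against 30.9% of all promoters and 51.0% of those of tested genes. Both forms were searched on both strands in the 250 bases before the start. The HIF list was made of known targets, some of which are in the glycolysis list. A share above that of all promoters can therefore come from the choice of members. Members that did not pass were not compared, and a match does not show a binding site. In Pgm1 a second ACGTG follows in lower case.

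**Figure D2:**
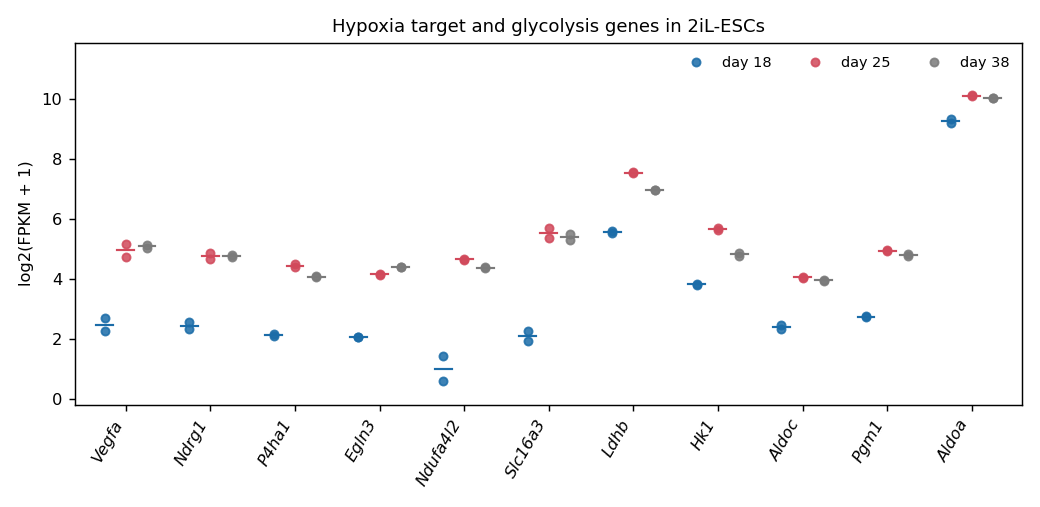
Level of HIF targets and glycolysis genes in the 2iL-ESC libraries, as log2(FPKM + 1) for each library (dots) and the mean of each day (dashes), with day 18 in blue, day 25 in red and day 38 in grey. Vegfa stood at 3.80 and 5.41 FPKM at day 18, 35.3 and 25.5 at day 25 and 34.2 and 31.9 at day 38.

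Other genes among the 12 largest rises belonged to no list. Copz2, a subunit of the coat of transport vesicles, went from 0.538 and 0.327 to 9.31 and 10.2 FPKM (log2 change 2.91 ± 0.13). Lrrc31, a leucine-rich repeat protein of epithelia, was at 1.47 and 1.73 FPKM and then at 12.8 and 13.2. St14, the membrane protease matriptase, went from 7.09 and 6.23 to 38.00 and 36.8 FPKM. Slc9a8, a sodium/proton exchanger, went from 4.02 and 4.74 to 23.7 and 20.4 FPKM, and Capn5, a calpain protease, from 3.32 and 3.50 to 18.3 and 17.4. On the other side, 2 of the 12 largest falls are not interferon genes. Enox1, a cell surface oxidase, went from 27.2 and 30.3 to 3.21 and 2.43 FPKM (log2 change -2.97 ± 0.13). Fdx2, a ferredoxin of mitochondria, was at 23.6 and 20.8 FPKM and then at 2.89 and 3.32, but its level is uncertain. It shares its strand and span with Gm38431, which was at 1.64 and 1.70 FPKM and then at 63.7 and 38.6, so the split of reads between the 2 genes is uncertain.

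The core and naive pluripotency factors changed in different directions. All 18 listed factors were tested, of which 9 were upregulated, 4 were downregulated and 5 did not pass, with a median change of 0.36. After removal of the length and GC trends 8 rose and 5 fell, with a median of 0.13. The Kruppel-like factors rose, and the largest rise was that of Klf4, a direct STAT3 target, from 28.7 and 32.01 to 90.3 and 96.8 FPKM (log2 change 1.59 ± 0.08, adjusted p = 0.000823, limma). Klf2 went from 102 and 121 to 189.9 and 211 FPKM, and Klf5 from 38.7 and 47.3 to 65.6 and 72.4. Tbx3, a T-box factor of naive cells, went from 13.9 and 17.8 to 46.8 and 48.2 FPKM (log2 change 1.53 ± 0.12). Tfcp2l1, another STAT3 target, went from 43.5 and 46.4 to 83.6 and 84.3 FPKM, and Esrrb, the orphan receptor repressed by TCF7L1, from 188 and 169 to 261 and 268. Tfap2c (log2 change 1.08) and Prdm14 (0.61), which act in naive and germ cells, rose as well. Sox2 went from 102 and 130.1 to 208 and 228 FPKM.

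Its partner Pou5f1, which encodes OCT4, moved the other way, from 843 and 786 to 608 and 596 FPKM (log2 change -0.44 ± 0.06, adjusted p = 0.00529, limma). Gbx2, a homeobox gene downstream of LIF, went from 22.6 and 25.2 to 12.9 and 14.4 FPKM. Nr0b1 (log2 change -0.39) and Dppa3 (-0.32), also known as Stella, were lower too, although the fall of Dppa3 was gone once the trends with length and GC content were removed. Nanog did not pass, at 249 and 283 FPKM at day 18 and 252 and 279 at day 25, and its libraries overlapped between the days. Values for the other 4 factors that did not pass were a log2 change of 0.15 for Sall4, 0.09 for Nr5a2, -0.09 for Zfp42, known as Rex1, and -0.12 for Zfp281, with adjusted p from 0.163 to 0.402.

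**Figure D3:**
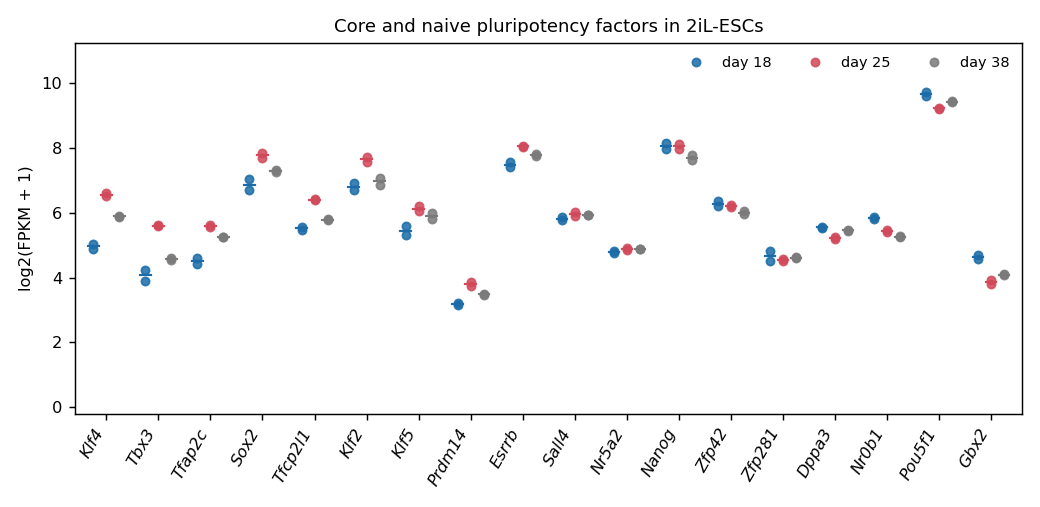
Level of the 18 core and naive pluripotency factors in the 2iL-ESC libraries, as log2(FPKM + 1) for each library (dots) and the mean of each day (dashes), with day 18 in blue, day 25 in red and day 38 in grey. Klf4 and Tbx3 show the widest gaps between the days and Nanog, at 249 and 283 against 252 and 279 FPKM, shows none.

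Other genes of pluripotent cells were mixed. Of 19 pluripotency-associated genes, 6 rose (31.6%), 8 fell (42.1%) and 5 did not pass, with a median of -0.11 (0.01 in TPM). Over all genes tested 31.5% rose and 17.4% fell. Fgf4, the autocrine activator of ERK, went from 53.7 and 65.6 to 136 and 145 FPKM (log2 change 1.23 ± 0.11). Dppa5a, an RNA-binding protein of ESCs, went from 969 and 922 to 1319.8 and 1291 FPKM. The paired chromatin factors Dppa2 and Dppa4 fell, from 82.98 and 88.96 to 34.7 and 37.5 and from 121 and 121 to 59.7 and 57.5 FPKM. Lin28a, which blocks let-7 maturation, went from 85.9 and 84.7 to 37.7 and 36.7 FPKM. Of 13 tested formative and primed epiblast markers, 7 rose and 3 fell, with a median of 0.57. With length and GC trends removed 4 rose and 4 fell, with a median of 0.27. Lefty1 and Lefty2, feedback inhibitors of NODAL, went from 11.2 and 8.93 to 38.8 and 39.5 and from 22.7 and 25.1 to 55.6 and 55.9 FPKM. The 3 that fell were the methyltransferase gene Dnmt3b, from 108 and 109 to 50.3 and 48.2 FPKM, Etv1 (log2 change -1.26) and Pou3f1, also called Oct6 (-1.08, named after its value was seen).

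Readouts of the 3 additives of 2iL were looked at next. For LIF, 10 of 17 genes of the STAT3 pathway rose and only Gbx2 fell, with a median of 0.45. Klf4, Tfcp2l1 and Gbx2 are in this list and also among the core and naive factors above. The counts were 6 up and 2 down with length and GC trends removed, with a median of 0.19. Pim1, a kinase induced by STAT3, went from 33.4 and 38.6 to 71.7 and 73.9 FPKM. The receptor chain Il6st (log2 change 0.59), Stat3 (0.45) and its feedback inhibitor Socs3 (0.51) rose as well, and were named after their values were seen. For MEK, 5 of 17 ERK feedback genes and early targets rose (29.4%, against 31.5% of all genes) and 3 fell (17.6%, against 17.4%). Their median was 0.02. The balance turned with the scaling, to 3 up and 5 down after quantile normalization (median -0.21) and to 2 up and 7 down with length and GC trends removed (median -0.06). The ETS factor Etv4 went from 62.5 and 66.2 to 25.9 and 25.2 FPKM and cyclin D1, gene Ccnd1, from 34.1 and 37.1 to 13.9 and 14.8. Among the feedback inhibitors, Spry4 fell (log2 change -0.67) and Spry1 rose (0.81). For GSK3, 6 of 14 WNT targets and feedback genes rose and 3 fell, with a median of 0.29. Once length and GC trends were removed 3 rose and 4 fell, with a median of -0.02. Notum (0.78) and Tcf7l2 (0.91) were among those that rose, whereas the mesoderm factor T (-1.47) fell. Cdx2, a factor of trophoblast and hindgut, was at 1.31 and 1.10 FPKM at day 18, and at day 25 at 0.0927 FPKM in replicate 1 and listed at 0 in replicate 2.

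Among genes of DNA methylation the largest fall was that of Dnmt3l, the cofactor of de novo methylation. Dnmt3l went from 142 and 140.4 to 31.9 and 32.5 FPKM (log2 change -2.10 ± 0.06, adjusted p = 0.000498, limma). Tet1, which oxidizes methylcytosine, went from 24.5 and 28.4 to 40.4 and 41.5 FPKM. Over the whole methylation machinery 9 of 27 genes rose (33.3%, against 31.5% of all genes) and 6 fell (22.2%, against 17.4%). Their median was 0.01, and with length and GC trends removed 7 rose and 12 fell. Of 40 tested germline genes that methylation silences in somatic cells, 19 fell, 6 rose and 15 did not pass, with a median of -0.36. Without replicate 1 or replicate 2 of day 25 fewer passed, as over all genes, and the medians were -0.30 and -0.42. Fkbp6, a cochaperone of spermatocytes, went from 25.7 and 22.1 to 5.87 and 6.12 FPKM. Rhox5, an X-linked homeobox gene, went from 405 and 347 to 225 and 214 FPKM, and Magea4 fell by 1.48 on the log2 scale. The meiotic cohesin gene Rec8 rose by 1.11.

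Genes of the 2-cell stage were lower at day 25 wherever they passed. Of the 22 listed, 10 were tested, of which 7 fell and 3 did not pass, with a median of -0.67. Zscan4d, of a family active in rare ESCs, went from 7.65 and 7.85 to 2.51 and 2.61 FPKM, and Zscan4f changed by -0.93. The Zscan4 copies are near-identical, so the split of reads among them is uncertain. Imprinted genes showed no common direction, with 9 of 42 up, 10 down and a median of 0.10. Mest, a paternally expressed gene, went from 73.2 and 79.7 to 34.01 and 34.6 FPKM, and Gnas (1.06) and Trappc9 (1.13) rose.

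Stress genes divided by pathway. The heat shock genes fell, with 13 of 18 down, 2 up and a median of -0.45. Without replicate 1 or replicate 2 of day 25 fewer passed, as over all genes, and the medians were -0.41 and -0.49. After quantile normalization 8 were down (44.4%, against 21.6% of all genes), with a median of -0.30. Hsph1, a large chaperone of the HSP110 family, went from 106 and 122 to 50.8 and 51.9 FPKM. Hspa8, the constitutive HSP70, went from 1636 and 1622 to 890.1 and 889.8 FPKM (log2 change -0.87 ± 0.06). Dnaja1 (-0.95) and Hsp90aa1 (-0.43) fell as well. The 2 that rose, named after their values were seen, were the factor Hsf1 (0.38) and the cochaperone Bag3 (0.38). Immediate early genes rose, with 9 of 13 up, the other 4 not passing and a median of 0.63. Jun went from 1.004 and 1.06 to 3.86 and 4.48 FPKM, and Jund (0.98), Dusp1 (1.01) and Maff (0.97) rose too.

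The integrated stress response, run by ATF4, had 22 of 37 targets up and 2 down, with a median of 0.32. Its largest changes were those of Stc2 (2.01) and Ddit4 (1.89), which are also in the list of HIF targets above. With length and GC trends removed 16 were up and 7 down, with a median of 0.16. Asns, which makes asparagine, went from 245 and 256 to 346 and 344 FPKM. The 2 that fell, named after their values were seen, were the amino acid transporter Slc7a3 (-0.68) and the serine synthesis gene Psat1 (-0.19, which was 0.00 after quantile normalization). Chaperones of the endoplasmic reticulum had 3 of 22 up and 7 down with a median of -0.04 (6 up and 3 down in TPM), and Manf was among those that fell (-0.60). Of 28 p53 targets, 11 rose (39.3%, against 31.5% of all genes) and 3 fell (10.7%, against 17.4%), with a median of 0.25. With length and GC trends removed 10 rose and 6 fell, with a median of 0.14. The cell cycle inhibitor Cdkn1a, known as p21, went from 73.3 and 81.4 to 138 and 146 FPKM, whereas Trp53 itself went from 198 and 198 to 136 and 135.

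Genes of fatty acid synthesis rose. Of 19 fatty acid synthesis genes, 13 were upregulated and 6 did not pass, with a median of 0.69. Acacb, which makes malonyl-CoA at mitochondria, went from 3.73 and 3.97 to 14.4 and 13.6 FPKM. The desaturases Fads1 (log2 change 1.33), Scd1 (1.06) and Scd2 (0.84) rose. Cholesterol genes had 11 of 29 up (37.9%, against 31.5% of all genes tested) and 1 down, with a median of 0.22. With length and GC trends removed 10 were up and 5 down. The regulators Srebf1 (1.05) and Srebf2 (0.90) rose, and the gene that fell was Ebp, a sterol isomerase (-0.67, named after its value was seen). Serine, glycine and threonine metabolism had 3 of 17 up and 7 down, with a median of -0.07. Tdh, the threonine dehydrogenase on which mouse ESCs depend, went from 393 and 391 to 219 and 216 FPKM. Mat2a, which makes S-adenosylmethionine (-0.91), and Tyms, which makes thymidylate (-0.69), fell.

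Many genes of ribosomal proteins and of the respiratory chain fell. Of 84 cytosolic ribosomal protein genes, 67 were downregulated and 17 did not pass, with a median of -0.44. How many fell depended on the scale and the libraries. After quantile normalization 16 were downregulated (19%, against 21.6% of all genes in that setting) with a median of -0.12. Without replicate 1 of day 25 it was 16 (19%, against 7.95% of all genes, median -0.47), and without replicate 2 of day 25 it was 7 of 83 (8.43%, against 6.95%, median -0.41). Rplp0 (log2 change -0.44) and Rpl27 (-0.74) are examples, and the paralog Rpl39l, for which reads shared with near-identical copies are uncertain, went from 47.8 and 33.9 to 9.53 and 9.43 FPKM. Of 82 tested nuclear-encoded subunits of the respiratory chain, 40 fell and 1 rose, with a median of -0.35. Without replicate 1 or replicate 2 of day 25 fewer passed, as over all genes, and the medians were -0.40 and -0.30. Atp5g1, a subunit of the ATP synthase ring, went from 390.4 and 315 to 195 and 171 FPKM. The riser was Cox4i2 (0.85), an isoform of a cytochrome c oxidase subunit, with a mean of 0.33 FPKM at day 18 and 1.39 at day 25. It passed the FPKM limit only through day 25, so the limit set its direction. Ribosomal and respiratory genes are short, and the bin of the shortest genes had a median of -0.12. Once the trends with length and GC content were removed, 50 ribosomal genes fell (median -0.38) and 35 respiratory genes fell (median -0.20). Among the mitochondrially encoded protein genes 1 of 9 tested passed, mt-Cytb, which went from 2672 and 3234 to 1647 and 1645 FPKM.

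Cell cycle genes were mixed. Of 24 G2/M genes, 10 fell and 4 rose, with a median of -0.25. Kif20a, a kinesin of cell division (-0.77), and the kinase gene Aurkb (0.57) moved in opposite directions. Among 20 G1 cyclins and inhibitors 6 rose (30%, against 31.5% of all genes) and 5 fell (25%, against 17.4%). Their median was 0.04, and E2f1 was among those that rose (0.87). Replication-dependent histone genes, found under current symbols after the data were seen, had 9 of 24 down and 15 that did not pass, with a median of -0.55. Their RNAs carry no poly-A tail as a rule, and the libraries were made with poly-T beads.

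Integrin and laminin genes rose. Of 18 tested integrins and laminins, 11 rose and 1 fell, with a median of 0.80. With length and GC trends removed 10 rose and 3 fell, with a median of 0.35. Itgb4, the integrin of hemidesmosomes (1.22), and the laminin chains Lama1 (1.33) and Lama5 (1.21) were among the risers, and the chain that fell was Lama3 (-0.39, named after its value was seen). Collagens had 3 of 8 tested up (37.5%), 1 down and a median of 0.18, and with length and GC trends removed 2 up, 4 down and a median of -0.42. Fn1, fibronectin, went from 68.04 and 71.5 to 282 and 277 FPKM (log2 change 1.99 ± 0.06). Fn1 is also made by feeder fibroblasts. The fibroblast genes as a list had 7 of 17 up and 5 down with a median of 0.12 (4 up and 7 down with length and GC trends removed), and Vim (-0.70) and Col1a2 (-0.51) fell. Of 43 fibroblast genes listed, 26 did not reach the FPKM limit. Hippo/YAP and cytoskeleton targets had 12 of 26 up and 3 down, with a median of 0.27. These counts were 10 and 9 with length and GC trends removed.

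Genes of most other lineages were largely under the FPKM limit, and trophoblast regulators were not. Primitive endoderm genes had 3 of 18 over the limit, streak and mesoderm genes 4 of 15, neural genes 6 of 16 and Hox genes 3 of 39. Trophoblast regulators had 11 of 15 over the limit, with 7 up, 1 down (Cdx2) and a median of 0.72 (0.43 with length and GC trends removed). The risers included the surface protein gene Plet1 (0.99), the keratins Krt7 (0.95) and Krt8 (0.73) and the T-box factor Eomes (0.72, named after its value was seen). Krt7 stayed low, with a mean of 0.03 FPKM at day 18 and 0.997 at day 25. It passed the limit only through day 25, and Cdx2 only through day 18, so the limit set their directions. By contrast, of the 4 trophoblast markers, Cdx2 alone passed FPKM 1 at day 18 and 0 of 4 did at day 25. The list therefore does not show a rise of these markers. Of the 49 keratins listed 6 were tested, and 4 of these rose, including Krt19, from 0.161 and 0.112 to 2.07 and 1.80 FPKM. Krt7 and Krt19 passed the limit only through day 25. With the limit taken over the 8 libraries of both media, 10 keratins were tested, with a 2iL-ESC median of 0.41 against 0.76. The medians of the MEK/ERK, imprinted, DNA methylation, fibroblast, G1, endoplasmic reticulum and serine lists, none farther from 0 than 0.12, changed sign with the scaling. Without a library of day 25 fewer genes passed in the lists too, as over all genes. The medians without replicate 1 or replicate 2 of day 25 were 0.31 and 0.32 for ATF4 targets and 1.01 and 1.05 for HIF targets. For interferon and MHC genes they were -1.17 and -1.04.

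**Figure D4:**
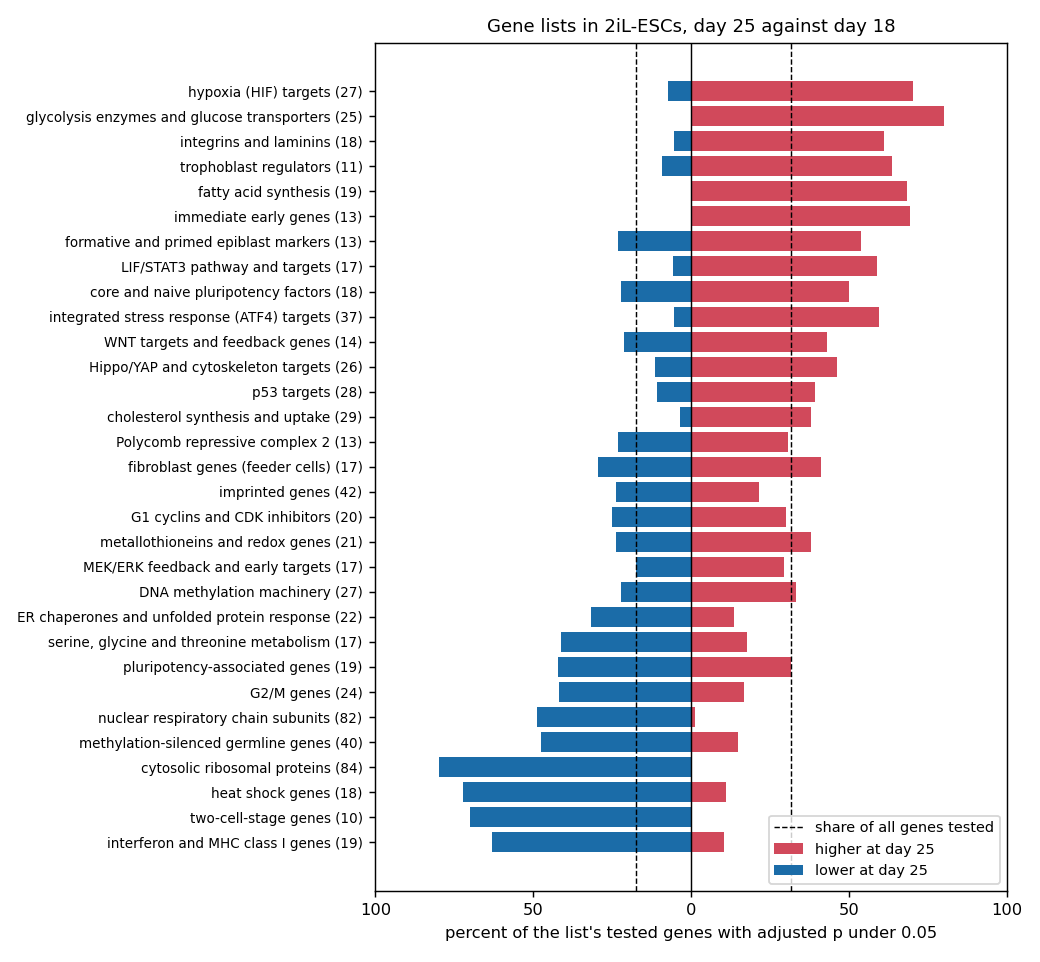
Share of the tested genes that were upregulated (red bars) or downregulated (blue bars) at day 25 against day 18 in 2iL-ESCs, for lists with 10 or more tested genes ordered by their median change, without the lists put together after the data were seen, in percent by limma with an adjusted p under 0.05. Dashed lines mark the shares of all 12540 genes, 31.5% up and 17.4% down, and glycolysis (20 of 25 up) and ribosomal proteins (67 of 84 down) have the longest bars of those drawn.

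In absolute FPKM the changes were led by abundant genes. Rises in mean FPKM were largest in Ftl1, the ferritin light chain, from 3334 and 3138 to 3809 and 3718, in Aldoa, in the elongation factor Eef2, from 1248 and 1262 to 1709.6 and 1729, in the lipid carrier Apoe, from 405 and 402 to 855 and 837, and in Dppa5a. The rise of Ftl1 was small on the log2 scale (0.22 ± 0.07, adjusted p = 0.0421, limma) and that of Apoe larger (1.07 ± 0.05). Falls were largest in mt-Cytb, in the nucleolar protein Npm1, from 2631 and 2906 to 1625 and 1719, in Ptma, prothymosin alpha, from 3654 and 3401 to 2543 and 2649, in the ribosomal gene Rps12, from 2038 and 1672 to 1047 and 1054, and in the histone variant gene H2az1, from 1632 and 1472 to 798 and 776.

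The day 38 libraries of 2iL-ESCs show where the same genes stood at the last day collected. These values are a description, since the day 18 and day 25 libraries enter both steps. The interferon gene Isg15 was low, at 0.154 FPKM in replicate 1 and listed at 0 in replicate 2. Ddx58 stood at 13.7 and 13.8 FPKM, between its levels of day 18 and day 25. Vegfa (34.2 and 31.9 FPKM), Slc16a3 (38.4 and 44.5) and Egln3 (19.9 and 19.9) were near their day 25 levels. Klf4 (58.6 and 57.9 FPKM), Tbx3 (23.5 and 22.2) and St14 (14.1 and 14.8) lay between the levels of day 18 and day 25, and so did Dnmt3l (81.5 and 80.02), Dnmt3b (91.5 and 86.6) and Enox1 (12.5 and 13.3). Copz2 was at 2.89 and 3.45 FPKM and Pou5f1 at 694 and 692.

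The same 7 days in OSKM-ESCs, which share no library with the 2iL-ESCs, served to ask which changes differed between the media. In a limma fit of medium and day over 8 libraries, the change differed for 3404 of 13564 genes tested (25.1%). It was more positive in 2iL-ESCs for 2325 (17.1%) and more negative for 1079 (7.95%). Of the 3946 genes upregulated in 2iL-ESCs, 1674 differed in that direction, and 1174 of these had a change below 0 in OSKM-ESCs. Of the 2183 downregulated genes, 696 differed, and 511 of these had a change above 0 in OSKM-ESCs. All 12 largest rises and 11 of the 12 largest falls differed between the media, and the exception was Fdx2. These genes were chosen by their change in 2iL-ESCs, which is part of the difference tested, so these counts are no independent check. The same holds for the counts among upregulated and downregulated genes. Leaving out any of the 4 2iL-ESC libraries lowered the counts, to between 1240 and 1521 more positive and between 481 and 585 more negative, with the lowest without replicate 2 of day 25. Across the genes tested in 2iL-ESCs, the changes in both media had a Pearson r of 0.192, over genes that are not independent.

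Most HIF targets changed differently in the 2 media. Of 27 targets, 17 had a more positive change in 2iL-ESCs and 1 a more negative change, and the median change in OSKM-ESCs was -0.15. Vegfa was at 10.7 and 14.1 FPKM in OSKM-ESCs of day 18 and at 7.64 and 8.75 at day 25, so its change was higher in 2iL-ESCs by 3.02 ± 0.29 on the log2 scale (adjusted p = 0.000804, limma). Slc16a3 was high in OSKM-ESCs on both days, at 35.6 and 39.5 and at 35.8 and 26.9 FPKM (difference 3.72 ± 0.26). Of 25 glycolysis genes, 15 had a more positive change in 2iL-ESCs and the other 10 did not pass.

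Isg15 was already low in OSKM-ESCs, at 3.27 and 1.87 FPKM at day 18 and at 0.543 and 0.760 at day 25, and it was at 5.51 and 4.67 in MEF cells. Its change in 2iL-ESCs minus that in OSKM-ESCs was -3.93 ± 0.30 (adjusted p = 0.000352, limma). In the list of interferon and MHC class I genes 9 of 24 had a more negative change in 2iL-ESCs and 7 a more positive change. The median change of these 24 genes was -0.33 in 2iL-ESCs and -0.57 in OSKM-ESCs, so the list was lower at day 25 in both media. In the wider interferon list 43 of 76 genes had a more negative change in 2iL-ESCs and 8 a more positive change. Its medians were -1.21 in 2iL-ESCs and -0.39 in OSKM-ESCs.

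Germline genes differed between the media as well. Of 43 germline genes in this fit, 20 had a more negative change in 2iL-ESCs and the other 23 did not pass, with a median change of 0.47 in OSKM-ESCs against -0.33 in 2iL-ESCs. Dnmt3l was at 27.2 and 30.8 FPKM in OSKM-ESCs at day 18 and at 82.9 and 75.4 at day 25, a difference in change of -3.52 ± 0.13. Dnmt3b went from 144 and 155 to 366 and 358 FPKM there, and Gbx2 from 7.88 and 12.5 to 37.5 and 39.6. The 2-cell-stage genes had 6 of 10 with a more negative change in 2iL-ESCs. Keratins had 7 of 10 with a more positive change in 2iL-ESCs, and their median change in OSKM-ESCs was -1.16. Of 84 ribosomal genes 2 differed between the media, and their median change was -0.33 in OSKM-ESCs. Respiratory chain genes had 3 of 82 that differed and a median of -0.34 in OSKM-ESCs. For the genes that did not differ, a p that misses the threshold does not show equal changes.

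**Figure D5:**
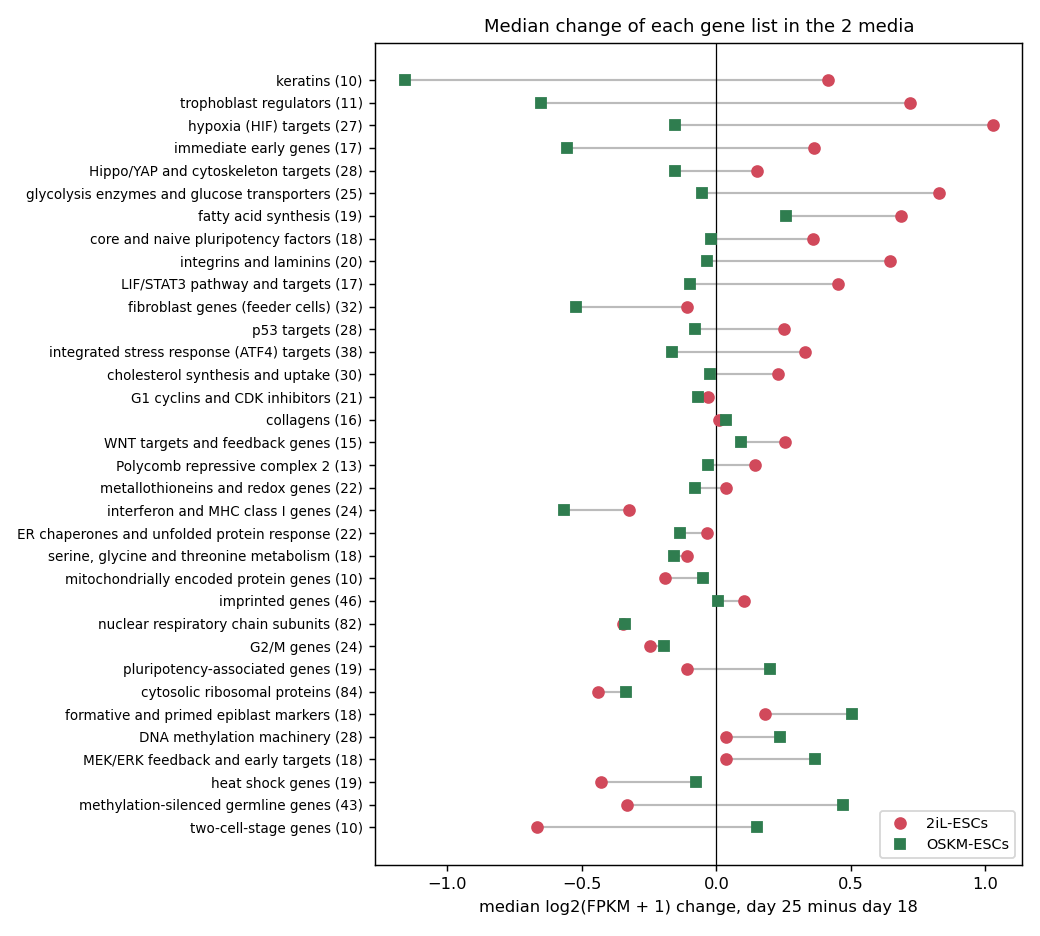
Median log2 change from day 18 to day 25 of each gene list in 2iL-ESCs (red circles) and OSKM-ESCs (green squares), with a line joining both medians of a list, for lists of 10 or more genes. HIF targets lie at 1.03 and -0.15 and keratins at 0.41 and -1.16, whereas ribosomal proteins lie at -0.44 and -0.33.

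By chromosome, the medians of the autosomes other than chromosome 13 lay within -0.04 and 0.05 of the median of all genes. Chromosome 13 lay at -0.13 (499 genes) and the X chromosome at -0.10 (433 genes). The mitochondrial genome lay at -0.30 over 31 genes, most of them of tRNAs or other short RNAs.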

How the data were processed

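RNA was extracted with TRIzol, and libraries were made from poly-A RNA with a kit that does not mark strand. The submitters' processing notes name STAR 2.7.1a, StringTie 2.0 and Cuffdiff 2.2.1 with GRCm38. The FPKM values were deposited by the authors for 55471 gene identifiers. Coverage was deposited as an unnormalized signal per base, and the deposited TPM values are the same data rescaled to a common total. Of the identifiers, 55469 were used, without St13 and U2surp, which had a failed value, and identifiers listed more than once were summed. Whether strand was used in counting is not given in the sources used here.

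On the log2(FPKM + 1) scale, limma 3.58.1 (R 4.3.3, lmFit, then eBayes with a trend) was run on the 4 libraries, keeping genes above FPKM 1 in any of them, and on 8 libraries for the interaction of medium and day. Cuffdiff, which needs reads, was not run. Lengths and GC content came from GENCODE M21 and promoters from RefSeq. Named genes are the 12 with the largest log2 change in each direction (mean FPKM over 5 at the higher day, fold over 2, no overlap, no predicted genes), the 5 largest FPKM changes in each direction, the 5 largest interactions in each direction, all core factors and, per list, up to 4 by change and 2 by level. Some genes that the rule names are not reported here. The comparison, the members and the lists were chosen with earlier results of these data known. Alternatives were another pseudocount, filter, scaling or fit, the replicate block and leaving out each library. The procedure was tested on simulated data.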

Additional observations from a re-analysis of the deposited data

Results flagged for a closer look

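The change from day 18 to day 25 differed between 2iL-ESCs and OSKM-ESCs for 3404 of 13564 genes by limma's interaction test. The values here are differences of log2 changes, 2iL-ESCs minus OSKM-ESCs, for the 5 largest in each direction.

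The change was more positive in 2iL-ESCs for Krt19, a keratin of simple epithelia (4.25), which was at 33.3 and 32.6 FPKM in OSKM-ESCs at day 18 and at 4.37 and 2.94 at day 25. Ndufa4l2 had a difference of 3.94, Lrrc31 of 3.87 and Slc16a3 of 3.72. Anxa2, a membrane-binding annexin, had a difference of 3.78, with 135 and 110.3 FPKM in OSKM-ESCs at day 18 against 16.7 and 18.3 at day 25, and 10.9 and 10.5 against 22.5 and 23.96 FPKM in 2iL-ESCs. In MEF cells Anxa2 was at 991 and 1033 FPKM and Krt19 at 23.1 and 28.0. The 12 fibroblast markers summed to 34.0 and 41.1 FPKM in OSKM-ESCs of day 18 and to 22.3 and 22.4 at day 25. The part of a changing mix of cells in the OSKM-ESC values was not tested.

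On the other side, Usp18 had a difference of -4.13, Enox1 of -3.97 and Isg15 of -3.93. Enox1 was at 4.24 and 3.61 FPKM in OSKM-ESCs at day 18 and at 9.15 and 8.51 at day 25, opposite to its fall in 2iL-ESCs. The value of -10.30 for mt-Atp6 rests on a gene listed at 0 in all 4 2iL-ESC libraries and in both OSKM-ESC libraries of day 18, and at 719 and 2210 FPKM in OSKM-ESCs of day 25. It overlaps mt-Atp8 and mt-Co3 on the same strand, so its split of reads is uncertain. Fam220a had a difference of -5.17. Its symbol belongs to 2 overlapping gene identifiers on 1 strand, and the values of this identifier differed strongly between the day 18 replicates of 2iL-ESCs, at 7.71 and 0.133 FPKM. For both of these genes the cause was not tested.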

How the results depend on the processing

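With 2 libraries a day, precision is set by the spread between them, and depth in reads is unknown. Of 154 named genes, 145 passed the test, and 107 of these kept their call and direction in each of the 16 alternatives that tested them. The other 38 lost the call or turned in at least 1, and 3 of them turned (Dppa3, Psat1 and Pml). A gene that the filter of an alternative left out was not counted as lost there. Where a value moved, the cause was not tested.

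The count of genes past fold 2 and unadjusted p 0.05 was 1447 up and 383 down. It was 2545 and 850 with no filter on low values, 875 and 646 after quantile normalization, 876 up with length and GC trends removed (chosen after seeing the data), and 603 and 189 with the fold taken on the mean log2 scale. In the last setting low genes have smaller folds. With length and GC trends removed, 2358 genes had a more negative change in 2iL-ESCs, against 1079. The distance between days was 2.00 times that within days, and this ratio was 1.673 with a pseudocount of 0.1, 1.926 after quantile normalization and 3.717 by 1 minus Pearson r. Leaving out each library in turn gave 1884 to 3760 upregulated and 859 to 2173 downregulated genes, and 1240 to 2332 genes with a more positive and 481 to 948 with a more negative change in 2iL-ESCs. The lone library left at a day was assumed to vary like the other day's.

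Some log2 changes changed sign. Nr5a2 was -0.0186 with median-ratio scaling and -0.025 with length and GC trends removed. Nanog was 0.19 after quantile normalization, 0.13 in TPM, 0.074 with trends removed and -0.093 to 0.093 without each library in turn. Hif1a was 0.11 in TPM and -0.17 to 0.14 without each library, and Zfp281 -0.27 to 0.022. Zfp42 was 0.041 in TPM and 0.043 with trends removed, and Psat1 was 7e-04 after quantile normalization. With trends removed Sall4 was -0.26, Pml -0.081 and Dppa3 0.013.

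With the replicate block, 4295 genes were upregulated and 2551 downregulated, and 2542 and 1192 differed between the media. The labels give no pairing, and the deviations of same-numbered libraries correlated at r = 0.148 over 2 pairs, which does not settle whether they are paired, and they were treated as unpaired.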
